A study of Mus musculus with 4 samples.

Results

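A set of 8 genes of the insulin-like growth factor (IGF) system was followed through single-cell RNA sequencing of differentiating mesenchymal progenitor cells, out of 32285 genes counted. They are the ligand gene Igf1, the receptor gene Igf1r and the binding-protein genes Igfbp2, Igfbp3, Igfbp4, Igfbp5, Igfbp6 and Igfbp7. They were chosen by name, with earlier results of these data known, and leave out Igfbp1, which had at most 3 UMIs in a library. All 8 passed the expression minimum, a mean level of 1 CPM (UMIs of the gene per 1000000 UMIs of the kept cells). Igfbp6 passed it only through the libraries in which it was high, as described below. The cells are C3H10T1/2, an established mouse line of mesenchymal progenitor cells (MPC) that can turn into muscle, fat or cartilage cells in culture. All of them carried a lentiviral, puromycin-selected transgene for tagged human histone H3.1 under the EF1 promoter, either wild type (H3WT) or with the R26C substitution (H3R26C), and kept their own H3 genes. The human transgene is not in the mouse reference, so the genotype labels cannot be checked from these counts. Each genotype was given vehicle (DMSO) or 5-Azacitidine (5-Aza), an inhibitor of DNA methylation that induces differentiation of this line and which was left on for 24 h at 3 µM. The study's methods put the harvest of differentiated cells at day 28 and name no day for DMSO, so treatment and time in culture cannot be told apart.

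Each of the 4 conditions is 1 library, so no difference between conditions has a replicate check and no p-value is given. Cells were kept at 5000 or more unique molecular identifiers (UMIs, each 1 captured RNA molecule), 1500 or more genes and at most 20% mitochondrial UMIs, which left 22049 of 39891 barcodes. These were 3710 cells for H3WT DMSO, 5993 for H3WT 5-Aza, 4727 for H3R26C DMSO and 7619 for H3R26C 5-Aza, with 84060490 to 110712425 UMIs per library. The median was 16598 UMIs or more per cell with DMSO and 13149 or fewer with 5-Aza. Libraries shared between 24 and 58 kept barcodes per pair, at most 1.11% of a library. All 7 genes of a mesenchymal marker list (such as Col1a1 and Vim) were above 1 CPM in every library, with a summed level of 10587 to 12048. The 5 blood markers summed to at most 2.86 and the 5 endothelial markers to at most 10.6 CPM. The 13 skeletal muscle markers summed to 28.4 and 22.1 in the DMSO libraries against 2158 and 2645 with 5-Aza in H3WT and H3R26C.

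IGF-I and IGF-II are secreted peptides that act on the IGF-I receptor, a tyrosine kinase that signals through the IRS docking proteins to growth, survival and differentiation. Most of the IGF in tissue is held by IGF-binding proteins, which lengthen its life and keep it from the receptor until proteases such as PAPP-A release it. In mesenchymal cells the system is known for driving muscle and bone formation, and Igf2 and Igfbp5 are known to be switched on as muscle precursors differentiate.

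Since 5-Aza acts on DNA methylation, which in mammals falls mostly on CpG dinucleotides, the stretches just before the start sites of some of these genes are shown with every CG in capitals. They come from RefSeq (GRCm38.p6), are written 5′ to 3′ on the strand of the gene, and leave out any base that GENCODE M21 counts as transcribed. Each is 120 bases long.
Igfbp6 (chr15:102144066-102144185, plus strand): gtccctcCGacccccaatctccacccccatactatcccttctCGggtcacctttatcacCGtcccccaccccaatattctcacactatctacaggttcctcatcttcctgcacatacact
Igfbp5 (chr1:72874885-72875004, minus strand): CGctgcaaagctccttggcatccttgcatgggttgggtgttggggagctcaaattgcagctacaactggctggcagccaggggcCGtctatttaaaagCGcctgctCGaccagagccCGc
Igfbp7 (chr5:77408046-77408165, minus strand): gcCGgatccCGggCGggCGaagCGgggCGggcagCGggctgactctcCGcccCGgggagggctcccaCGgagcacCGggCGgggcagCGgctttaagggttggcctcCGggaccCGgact
Igf1r (chr7:67952137-67952256, plus strand): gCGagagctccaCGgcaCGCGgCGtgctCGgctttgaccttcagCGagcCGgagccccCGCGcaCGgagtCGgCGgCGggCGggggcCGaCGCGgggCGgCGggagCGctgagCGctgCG
These are shown because Igfbp6 had the highest CPM ratios of 5-Aza over DMSO, Igfbp5 was past 2-fold between the genotypes with DMSO, Igfbp7 was past 2-fold with 5-Aza in both genotypes, and Igf1r was past it in no comparison. The motif searched was CG, which reads the same on both strands. Over the whole 250 bases before the start, Igfbp6 had 7 CG, Igfbp5 10, Igfbp7 26 and Igf1r 42. The other genes had 5 (Igf1), 22 (Igfbp4) and 32 (Igfbp3), and Igfbp2 had 14 and 11 at its 2 start sites. These are RefSeq start sites, and the windows of Igf1 and of the Igfbp2 site with 11 CG lie inside the gene bounds of GENCODE M21. Among 32851 such windows of all genes the median was 6, and 99.1% had fewer than Igf1r, 90.4% fewer than Igfbp7 and 53.7% fewer than Igfbp6. Methylation itself was not measured in these libraries, and the counts of CG describe the letters only.

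The genes lie on 6 chromosomes (GENCODE M21, GRCm38). Igfbp2 (chr1:72824503-72852474, plus strand) and Igfbp5 (chr1:72857932-72874884, minus strand) are neighbours that point at each other across 5457 bases. Igfbp3 (chr11:7206086-7213923, minus strand) lies 3539 bases from Igfbp1, while Igfbp4 (chr11:99041244-99054392, plus strand) is elsewhere on chromosome 11. The remaining genes are Igfbp7 (chr5:77349240-77408041, minus strand), Igf1r (chr7:67952827-68233668, plus strand), Igf1 (chr10:87858265-87937042, plus strand) and Igfbp6 (chr15:102144362-102149511, plus strand). Igf1os overlaps Igf1, and Polr2b and Gm34648 overlap Igfbp7, in each case on the opposite strand. Cell Ranger assigns reads by strand.

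Levels are given in CPM, and the bracketed intervals are exact 95% Poisson intervals, which cover counting error only. Igf1, which encodes the ligand IGF-I, was at 511 CPM in H3WT DMSO (506 to 516), 657 in H3WT 5-Aza (652 to 663), 487 in H3R26C DMSO (482 to 491) and 347 in H3R26C 5-Aza (344 to 351). The DMSO libraries were close to each other, with a ratio of H3R26C to H3WT of 0.953 (0.940 to 0.965), and the 5-Aza libraries lay on either side of them. The share of cells with an Igf1 UMI, once every cell had been cut down by random draws to 5000 UMIs (thinned, so that depth does not set the share), was 63.1%, 66.2%, 63.4% and 45.0% in the same order. Without thinning these shares were 82.1%, 79.7%, 80.5% and 60.5%.

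Igf1r, which encodes the receptor, varied least. It was at 70.7 CPM in H3WT DMSO (69.0 to 72.5), 70.3 in H3WT 5-Aza (68.5 to 72.1), 80.7 in H3R26C DMSO (78.8 to 82.7) and 67.2 in H3R26C 5-Aza (65.6 to 68.7). The intervals of both H3WT libraries overlap, as do those of both 5-Aza libraries, and only H3R26C DMSO stood clear of the other 3. A UMI of Igf1r was found in 29.1%, 28.3%, 30.6% and 27.2% of thinned cells.

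Igfbp2, a binding protein with a preference for IGF-II, was at 7.43 CPM in H3WT DMSO (6.86 to 8.02), 32.9 in H3WT 5-Aza (31.7 to 34.1), 2.00 in H3R26C DMSO (1.71 to 2.33) and 26.7 in H3R26C 5-Aza (25.7 to 27.6). It was held by few cells: 1.62%, 6.41%, 0.487% and 5.998% of thinned cells had a UMI. Both 5-Aza libraries were above both DMSO libraries, and H3R26C DMSO was the lowest.

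Igfbp3, the main carrier of IGF in blood and a product of many connective tissue cells, was at 15.3 CPM in H3WT DMSO (14.4 to 16.1), 94.5 in H3WT 5-Aza (92.4 to 96.6), 18.2 in H3R26C DMSO (17.3 to 19.2) and 96.5 in H3R26C 5-Aza (94.7 to 98.3). The intervals of both 5-Aza libraries overlap. The share of thinned cells with a UMI was 6.25% and 6.22% with DMSO, and 21.2% and 20.8% with 5-Aza, in H3WT and H3R26C.

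Igfbp4, an inhibitory binding protein that PAPP-A cleaves, was at 253 CPM in H3WT DMSO (250 to 257), 668 in H3WT 5-Aza (662 to 673), 189 in H3R26C DMSO (186 to 192) and 855 in H3R26C 5-Aza (850 to 861). H3R26C was thus the lower genotype with DMSO and the higher with 5-Aza. Shares of thinned cells ran in the same order as the levels, from 36.6% in H3R26C DMSO through 46.8% and 62.5% in H3WT to 76.1% in H3R26C 5-Aza.

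Igfbp5, a binding protein that also attaches to extracellular matrix, was at 354 CPM in H3WT DMSO (350 to 358), 835 in H3WT 5-Aza (829 to 841), 1134 in H3R26C DMSO (1127 to 1141) and 800 in H3R26C 5-Aza (795 to 805). It was the only one of the 8 genes with its highest level in H3R26C DMSO besides Igf1r. The share of thinned cells with a UMI gave another order, 22.3%, 42.5%, 38.4% and 50.02%, so the library with the highest level was not the one with the most Igfbp5-positive cells. Positive cells of H3R26C DMSO held 16.2 UMIs on average after thinning, against 8.19 to 9.89 in the other libraries.

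Igfbp6, which binds IGF-II far better than IGF-I, was close to the limit of detection with DMSO. It had 16 UMIs in H3WT DMSO (0.184 CPM, 0.105 to 0.299) and 68 in H3R26C DMSO (0.809 CPM, 0.628 to 1.03), and rose to 5.35 CPM in H3WT 5-Aza (4.87 to 5.86) and 37.0 in H3R26C 5-Aza (35.8 to 38.1). The shares of thinned cells with a UMI were 0.0270%, 1.95%, 0.275% and 13.7% for H3WT DMSO, H3WT 5-Aza, H3R26C DMSO and H3R26C 5-Aza. Igfbp6 was below 1 CPM in both DMSO libraries and passed the expression minimum only through the 5-Aza libraries. Its place among the genes tested, and its 2-fold calls there, thus rest partly on the libraries where it is high.

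Igfbp7, a matrix-associated member of the family with low affinity for IGF, was at 85.7 CPM in H3WT DMSO (83.8 to 87.7), 375 in H3WT 5-Aza (371 to 379), 153 in H3R26C DMSO (150 to 156) and 780 in H3R26C 5-Aza (775 to 785). H3R26C was the higher genotype under both treatments. The share of thinned cells with a UMI went from 29.6% to 68.1% in H3WT and from 42.4% to 87.6% in H3R26C, so with 5-Aza most cells of either genotype held it.

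**Figure D1:**
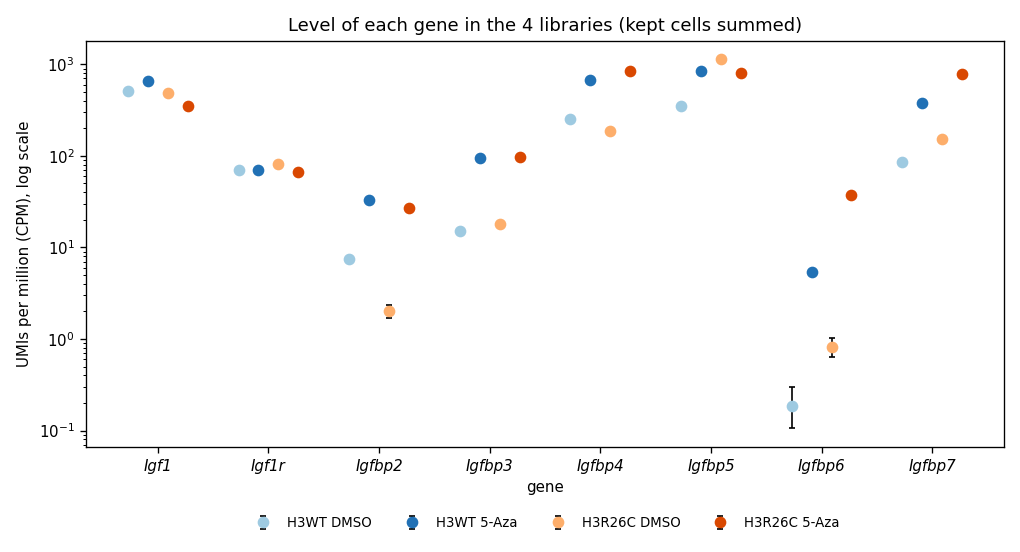
Level of each gene in CPM (log axis) in the 4 libraries, 1 point a library, with exact 95% Poisson intervals as bars where they are larger than the point. Igfbp2, Igfbp3, Igfbp4, Igfbp6 and Igfbp7 sit higher in both 5-Aza libraries than in both DMSO libraries, Igf1r lies between 67.2 and 80.7 CPM throughout, and Igfbp5 is highest in H3R26C DMSO at 1134 CPM.

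No cell class known to lack these genes was present to measure free RNA from broken cells, and its part in the shares of positive cells was not tested. As one value that bears on it, Acta1, a muscle actin, reached 110 and 137 CPM with 5-Aza in H3WT and H3R26C among cells outside every marker-defined class described below, against 0.172 and 0.0695 with DMSO.

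The first comparison sets the 5-Aza library of H3WT cells against their DMSO library. Binding-protein genes rose together: Igfbp2, Igfbp3, Igfbp4, Igfbp5, Igfbp6 and Igfbp7 were all at least 2-fold higher with 5-Aza, while Igf1 gained less and Igf1r stayed level. Of the 8 genes 6 were at least 2-fold higher and 0 at least 2-fold lower. Igfbp6, which passed the minimum only through the 5-Aza libraries, is among the 6. Of the 12482 genes that passed the minimum, 4.38% were 2-fold or more higher and 0.272% lower. A fold call was made on log2 ratios of CPM plus a pseudocount of 1, whose median was 1.70 over the 8 genes and 0.04 over all genes tested. The ratio of CPM was 6.19 for Igfbp3 (5.84 to 6.57), 4.43 for Igfbp2 (4.06 to 4.83), 4.38 for Igfbp7 (4.27 to 4.49), 2.64 for Igfbp4 (2.60 to 2.68) and 2.36 for Igfbp5 (2.33 to 2.39), with exact 95% intervals of the counts and no pseudocount. Igfbp6 gave a ratio of 29.0 (17.7 to 51.2) on the 16 UMIs of the DMSO library, and its log2 ratio with the pseudocount was 2.42, since the pseudocount shrinks low genes. The ratio for Igf1 was 1.29 (1.27 to 1.30), and for Igf1r 0.994 (0.959 to 1.03), an interval that includes no change.

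In H3R26C cells, 5 of the 8 genes were at least 2-fold higher with 5-Aza and 0 at least 2-fold lower, against 7.27% and 3.12% of all genes tested. The ratio was 13.3 for Igfbp2 (11.4 to 15.7), 5.29 for Igfbp3 (5.02 to 5.59), 5.10 for Igfbp7 (5.00 to 5.19) and 4.53 for Igfbp4 (4.46 to 4.61). For Igfbp6, which passed the minimum only through the 5-Aza libraries, it was 45.7 (36.0 to 58.9). These are the genes that also rose in H3WT, except Igfbp5. The level of Igfbp5 was lower with 5-Aza in this genotype, with a ratio of 0.705 (0.699 to 0.712), as was Igf1 with 0.714 (0.704 to 0.724) and Igf1r with 0.832 (0.805 to 0.860), none of them by 2-fold. The libraries also differed in their cells. Spp1-high cells, in which the osteopontin gene Spp1 makes at least 0.2% of UMIs, were 56.9% of H3R26C 5-Aza and 6.49% of H3R26C DMSO. When they were left out, an alternative added after the data were seen, the log2 ratio of Igf1 went from -0.49 to 0.02 and that of Igfbp5 from -0.50 to -0.03. The part of these cells in the lower levels was not tested beyond this. The other 5 genes were still 2-fold or more higher without Spp1-high cells, with log2 ratios between 2.21 and 4.02.

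The second question is how H3R26C differed from H3WT under each treatment. With DMSO, Igfbp5 was higher in H3R26C with a ratio of 3.20 (3.16 to 3.25) and Igfbp2 was lower with 0.269 (0.226 to 0.319), and no other of the 8 genes passed 2-fold. Of all genes tested, 1.82% were 2-fold or more higher and 0.577% lower. Igfbp7 had a ratio of 1.78 (1.73 to 1.84), Igfbp3 1.19 (1.11 to 1.29), Igf1r 1.14 (1.10 to 1.18) and Igfbp4 0.745 (0.730 to 0.760). For Igfbp6 the counts gave 4.39 (2.52 to 8.11) and the log2 ratio with the pseudocount only 0.61, below the 2-fold line.

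With 5-Aza, Igfbp6 with a ratio of 6.91 (6.27 to 7.63) and Igfbp7 with 2.08 (2.05 to 2.11) were at least 2-fold higher in H3R26C than in H3WT, and 0 of the 8 genes were 2-fold lower. The shares of all genes tested were 4.21% higher and 2.68% lower. The ratio of Igf1 was 0.528 (0.521 to 0.535), just short of 2-fold lower, and without Spp1-high cells its log2 ratio went from -0.92 to -0.35. Igfbp4 had a ratio of 1.28 (1.27 to 1.29), Igfbp2 0.811 (0.770 to 0.854) and Igfbp5 0.957 (0.948 to 0.967), and Igfbp3 with 1.02 (0.992 to 1.05) had an interval that includes no change. Without Spp1-high cells the log2 ratio of Igfbp5 went from -0.06 to 0.50 and that of Igf1r from -0.06 to 0.18, so the direction of these small differences depends on which cells are counted. Igfbp6 and Igfbp7 kept their direction and were past 2-fold without these cells too, with log2 ratios of 2.25 and 1.02. The DMSO libraries and the 5-Aza libraries each enter more than one of these comparisons, so the 4 sets of ratios share samples.

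**Figure D2:**
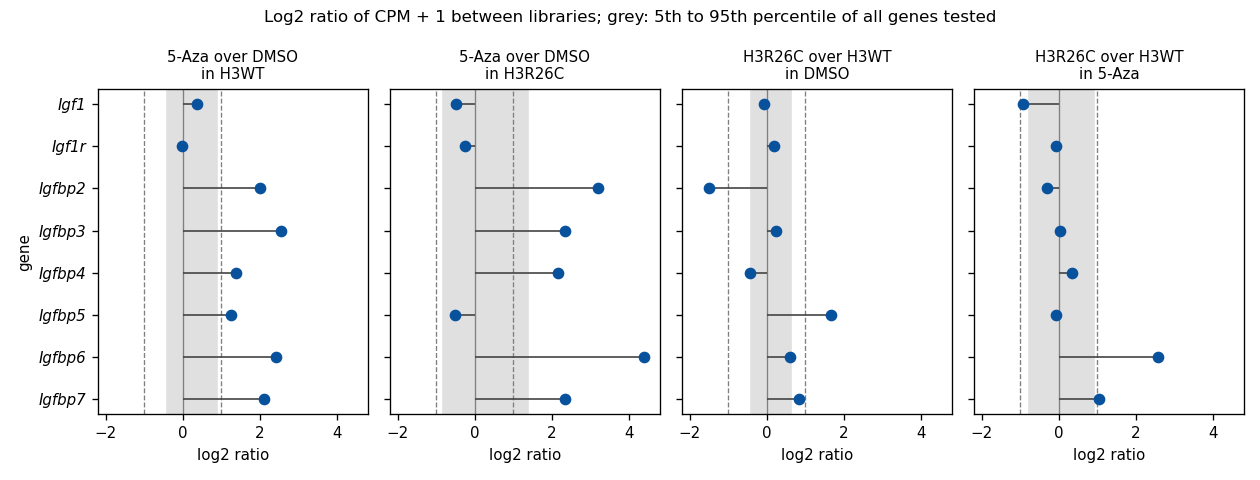
Log2 ratio of CPM plus 1 for each gene in the 4 comparisons, with the 5th to 95th percentile of all 12482 genes tested in grey and 2-fold marked by dashed lines. With 5-Aza the binding-protein genes lie right of the grey range in H3WT, and Igfbp5 (-0.50) lies inside it in H3R26C; H3R26C over H3WT in DMSO shows Igfbp5 (1.68) and Igfbp2 (-1.49) on opposite sides.

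Igfbp5 was then followed from cell to cell. Most of its UMIs came from few cells: its variance over its mean in thinned counts was 27.8 to 44.8 by library, where counting alone gives about 1, against 1.10 to 1.43 for Igf1r, 1.38 to 3.20 for Igfbp7 and 5.98 to 8.45 for Igf1. Cells in which Igfbp5 makes 0.2% or more of UMIs are called Igfbp5-high. They were 224 cells or 6.04% of H3WT DMSO (exact binomial 95% interval 5.29 to 6.85), 672 or 11.2% of H3WT 5-Aza (10.4 to 12.0), 801 or 16.9% of H3R26C DMSO (15.9 to 18.1) and 859 or 11.3% of H3R26C 5-Aza (10.6 to 12.0). H3R26C DMSO had the largest share, H3WT DMSO the smallest, and the 5-Aza libraries had overlapping intervals.

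In that order of libraries the Igfbp5-high cells held 69.1%, 75.6%, 85.5% and 69.6% of all Igfbp5 UMIs and 5.16%, 11.3%, 15.8% and 11.0% of the UMIs of all genes. The median Igfbp5-high cell gave 0.343%, 0.380%, 0.438% and 0.372% of its UMIs to Igfbp5, and the highest single cell 2.28%, 4.27%, 5.07% and 3.59%. The line selects these cells by Igfbp5, so their excess of Igfbp5 UMIs and medians above 0.2% are set by the rule. At the other end, 70.3%, 43.0%, 51.8% and 33.2% of cells had 0 Igfbp5 UMIs. The remaining cells, below the 0.2% line, held Igfbp5 at 116 CPM in H3WT DMSO, 230 in H3WT 5-Aza, 196 in H3R26C DMSO and 273 in H3R26C 5-Aza. The level of these cells is bounded by the line itself. The share of Igfbp5-high cells went up with 5-Aza in H3WT and down in H3R26C.

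The line divides a continuous range and not a separate group. Between 0.15% and 0.25% there were 107, 288, 262 and 411 cells in the same order, and the lowest Igfbp5-high cell of H3WT DMSO was at 0.2017% with the next cell below at 0.1984%, while the gap was smaller elsewhere. Igfbp5-high cells were of ordinary depth, with a median of 19370, 13339, 15961 and 13305 UMIs against 22593, 13126, 16751 and 13091 in the others. Their mitochondrial share was slightly higher in every library, at 4.24%, 3.01%, 3.14% and 2.95% against 3.84%, 2.86%, 2.67% and 2.51%.

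**Figure D3:**
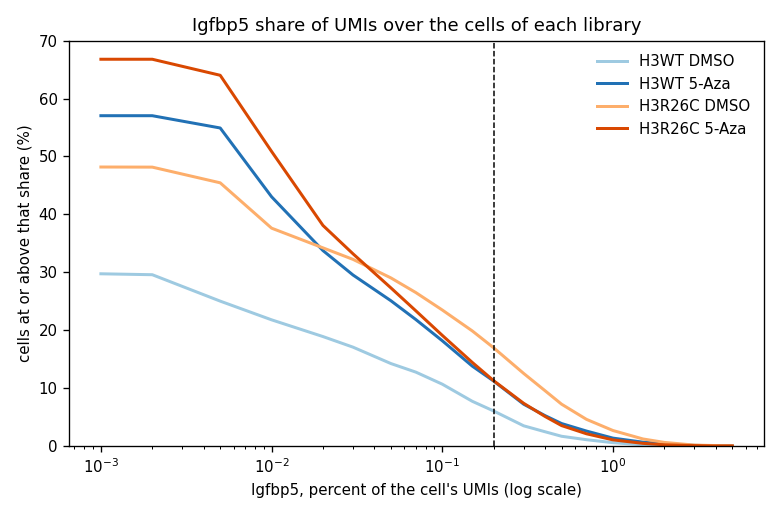
Percent of cells (vertical axis) in which Igfbp5 makes at least the share of UMIs on the horizontal log axis, 1 line a library, with the 0.2% line dashed. H3WT DMSO lies lowest throughout, the H3R26C DMSO line crosses above both 5-Aza lines toward the right and reaches 16.9% at the dashed line, and the 5-Aza lines meet there at 11.2% and 11.3%.

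The next comparison asks which of the other genes went with high Igfbp5 within a library, and is a description of cells of the same culture. Igf1 and Igfbp3 were higher in the Igfbp5-high cells of all 4 libraries, Igf1r was higher in the H3R26C libraries, and Igfbp2 was lower in the DMSO libraries. Igf1 was at 1012 CPM in the Igfbp5-high cells of H3WT DMSO against 484 in its other cells (ratio 2.09, 2.03 to 2.16), and at 765 against 644 in H3WT 5-Aza (1.19, 1.16 to 1.22). In H3R26C it was at 676 against 451 with DMSO (1.5, 1.46 to 1.53) and at 560 against 321 with 5-Aza (1.74, 1.70 to 1.79). The last contrast depends on the cells compared with: H3R26C 5-Aza cells of no class, neither Igfbp5-high nor Spp1-high nor in a marker-defined class, had Igf1 at 567 CPM, level with the Igfbp5-high cells. Cells of no class had 509 CPM in the H3WT DMSO library, 708 in H3WT 5-Aza and 526 in H3R26C DMSO, below the Igfbp5-high cells there.

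Igfbp3 was at 27.0 against 14.6 CPM in H3WT DMSO (ratio 1.85, 1.52 to 2.23), 174 against 84.3 in H3WT 5-Aza (2.06, 1.95 to 2.18), 32.5 against 15.5 in H3R26C DMSO (2.09, 1.87 to 2.34) and 147 against 90.2 in H3R26C 5-Aza (1.63, 1.55 to 1.72). Against the cells in no class it stayed higher, these being at 14.7, 86.1, 16.3 and 94.2 CPM. Its rise with 5-Aza was present in Igfbp5-high cells and in the others of both genotypes.

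Igf1r was at 106 CPM in the Igfbp5-high and 76.1 in the other cells of H3R26C DMSO (ratio 1.39, 1.31 to 1.47), and at 102 and 62.9 in H3R26C 5-Aza (1.62, 1.52 to 1.72). In H3WT it was at 63.2 and 71.1 with DMSO (0.889, 0.786 to 1.0) and at 74.1 and 69.8 with 5-Aza (1.06, 0.980 to 1.15). Cells of no class had Igf1r at 80.8 CPM in H3R26C DMSO and 79.1 in H3R26C 5-Aza, below the Igfbp5-high cells there. The gap in H3R26C 5-Aza was thus smaller against cells of no class than against all other cells. The shares of thinned cells with an Igf1r UMI were 36.2% against 29.4% and 39.7% against 25.6% in H3R26C DMSO and 5-Aza. In H3WT they were 17.9% against 29.9% with DMSO, a wider gap than that of the levels, and 28.7% against 28.3% with 5-Aza. Whether the genotypes differ in this could not be tested with 1 library each.

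Igfbp2 was nearly absent from Igfbp5-high cells with DMSO, with 6 UMIs in H3WT (1.34 against 7.76 CPM in the other cells) and 10 UMIs in H3R26C (0.751 against 2.23 CPM). With 5-Aza it was at 35.6 against 32.5 CPM in H3WT and 21.9 against 27.3 in H3R26C. Igfbp7 was lower in Igfbp5-high cells with DMSO, at 63.0 against 87.0 CPM in H3WT and 121 against 159 in H3R26C, and close to level with 5-Aza, at 353 against 378 and 784 against 779. Igfbp4 differed by ratios of 0.878 to 1.27 over the libraries, highest in H3R26C 5-Aza (1057 against 830 CPM). The shares of thinned cells with an Igfbp4 UMI were 44.2% against 46.9% and 65.2% against 62.1% in H3WT DMSO and 5-Aza. In H3R26C they were 44.3% against 35.0% and 82.7% against 75.3%. Level and share of Igfbp4 went the same way only in H3R26C 5-Aza. In that library the cells of no class had Igfbp4 at 1052 CPM (1040 to 1063), level with the Igfbp5-high cells. Igfbp6 had 0 UMIs in the Igfbp5-high cells of H3WT DMSO (up to 0.824 CPM, against 0.194 in the others), too few for a fold. With 5-Aza it was at 6.59 against 5.19 CPM in H3WT (ratio 1.27, 0.957 to 1.66), an interval that includes no change. In H3R26C 5-Aza Igfbp6 was at 25.1 against 38.4 CPM (ratio 0.652, 0.578 to 0.733). The cells of no class in that library had Igfbp6 at 21.8 CPM (20.2 to 23.5), not above the Igfbp5-high cells. The lower level of Igfbp6 in Igfbp5-high cells there thus depends on the cells compared with.

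Set against all genes, few of the other 7 genes passed 2-fold on the log2 scale with the pseudocount. In H3WT DMSO these were Igf1 (higher) and Igfbp2 (lower), where 0.633% of genes were higher and 2.13% lower. In H3WT 5-Aza it was Igfbp3 (higher), with 0.489% of genes higher and 0.441% lower. In H3R26C DMSO it was again Igfbp3, with 0.481% higher and 2.00% lower, and in H3R26C 5-Aza 0 of the 7 passed, with 1.24% higher and 2.28% lower. The calls of Igf1 and Igfbp3 lie at the 2-fold line, and their log2 ratios of 1.02 to 1.06 went to between 0.874 and 0.996 under some alternatives, such as a line of 0.1% or leaving out cycling cells. The median log2 ratio over the 7 genes was -0.17, 0.13, -0.19 and 0.35, and over all 12481 other genes between 0.00 and 0.03.

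**Figure D4:**
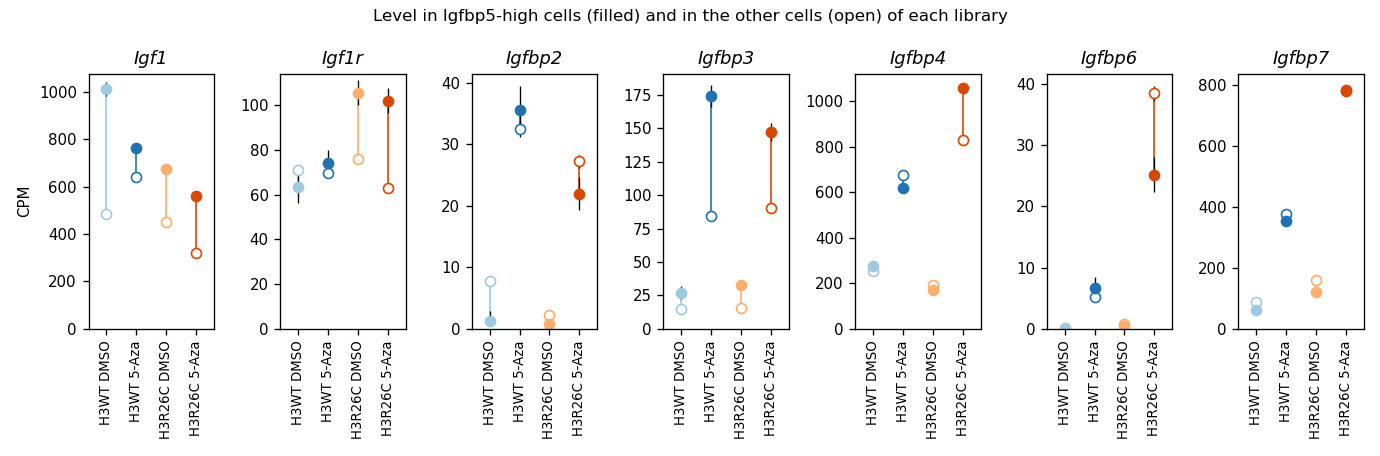
CPM of the 7 other genes in Igfbp5-high cells (filled) and in the other cells (open) of each library, with exact 95% Poisson intervals as bars and a separate vertical axis from 0 for each gene. Filled points of Igf1 and Igfbp3 are above the open ones in all 4 libraries, Igf1r is so in H3R26C (106 over 76.1 and 102 over 62.9), and Igfbp7 in H3R26C 5-Aza is the same at 784 and 779.

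Igfbp5-high cells overlapped unevenly with the cells that stand out by other genes. These were Spp1-high cells, muscle-marker-rich cells (13 skeletal muscle genes at 1% or more of UMIs), adipocyte-marker-rich cells (11 genes at 0.5% or more) and cycling cells (43 S and 54 G2M phase genes at 1% or more). They are ranges of a score, not cell types, and a cell can be in more than one. Of muscle-marker-rich cells, which occurred only with 5-Aza, 20 of 158 in H3WT (12.7%, 7.91 to 18.9) and 51 of 224 in H3R26C (22.8%, 17.4 to 28.8) were Igfbp5-high, compared with 11.2% and 11.3% of all cells. Of Spp1-high cells it was 1.12%, 11.4%, 2.93% and 6.76% in H3WT DMSO, H3WT 5-Aza, H3R26C DMSO and H3R26C 5-Aza, below the share of all cells in every library but H3WT 5-Aza. In H3R26C 5-Aza, 34.1% of Igfbp5-high cells were Spp1-high, against 59.8% of the others. Of cycling cells 0 of 117 in H3WT DMSO (up to 3.10%), 5.31% in H3WT 5-Aza, 6.13% in H3R26C DMSO and 2.89% in H3R26C 5-Aza were Igfbp5-high.

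The classes also differed in the other genes. Igfbp5 was at 1047 CPM in the muscle-marker-rich cells of H3WT 5-Aza (1007 to 1088) and at 1506 in those of H3R26C 5-Aza, against 835 and 800 in all cells of these libraries. Cells of no class are no measure for Igfbp5, since they exclude Igfbp5-high cells, and serve here for the other genes only. Muscle-marker-rich cells had little Igf1, at 155 against 708 and 71.5 against 567 CPM, and little Igfbp4, at 181 against 684 and 256 against 1052. Igfbp7 was at 163 against 366 and 236 against 787 CPM in the same cells. Igf2, the second ligand, was high there, at 455 and 305 CPM against 48.8 and 55.9. Igfbp2 and Igfbp6 were higher than in cells of no class in H3R26C 5-Aza and not in H3WT 5-Aza. In H3R26C 5-Aza Igfbp2 was at 59.9 CPM (53.1 to 67.5) against 25.6 in cells of no class, and Igfbp6 at 45.8 (39.8 to 52.4) against 21.8. Spp1-high and cycling cells of that library had Igfbp6 at 45.7 and 43.5 CPM, so its level was not particular to muscle-marker-rich cells. For Igfbp2 they had 26.8 and 27.3 CPM. In H3WT 5-Aza Igfbp2 was at 23.1 against 34.3 CPM, and Igfbp6 at 2.03 (5 UMIs, 0.659 to 4.74) against 4.06, inside that interval.

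Cycling cells were low in Igf1 in every library, with 75.2, 156, 80.8 and 118 CPM against 509, 708, 526 and 567 in the cells of no class, and in Igfbp4, with 61.6, 375, 32.9 and 415 against 266, 684, 227 and 1052. Their median depth, from 19746 to 38419 UMIs, was the highest of the classes in the 4 libraries. Spp1-high cells had Igf1 at 363, 588, 139 and 224 CPM, below the cells of no class throughout. Igfbp7 was at 122 against 85.0, 512 against 366, 238 against 140 and 821 against 787 CPM in the 4 libraries, higher in Spp1-high cells in each and least so in H3R26C 5-Aza. Igfbp6 was at 12.4 against 4.06 CPM in H3WT 5-Aza and 45.7 against 21.8 in H3R26C 5-Aza.

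Adipocyte-marker-rich cells were few, 31 in H3WT 5-Aza, 12 in H3R26C DMSO, 14 in H3R26C 5-Aza and 7, too few to describe, in H3WT DMSO. Igf1r was at 18.6, 10.3 and 23.0 CPM in the first 3, against 71.7, 80.8 and 79.1 in cells of no class, but these rest on 10 UMIs (8.93 to 34.3), 3 UMIs (2.13 to 30.2) and 6 UMIs (8.42 to 49.97). Igfbp7 was at 758, 1349 and 1504 CPM against 366, 140 and 787. Igf1 was at 739, 850 and 1255 CPM, above the cells of no class in H3R26C, by 850 against 526 with DMSO and 1255 against 567 with 5-Aza. In H3WT 5-Aza its interval (668 to 816) includes the 708 CPM of the cells of no class. Acta1 was also at 3781 CPM in the 31 cells of H3WT 5-Aza, and the part of cell pairs caught in 1 droplet was not tested. Igfbp7 in cells rich in fat markers was above that of the other classes in each of the 3 libraries. The Igf1r interval in H3R26C 5-Aza reaches the 49.2 CPM of cycling cells and ends just below the 50.3 CPM of muscle-marker-rich cells.

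**Figure D5:**
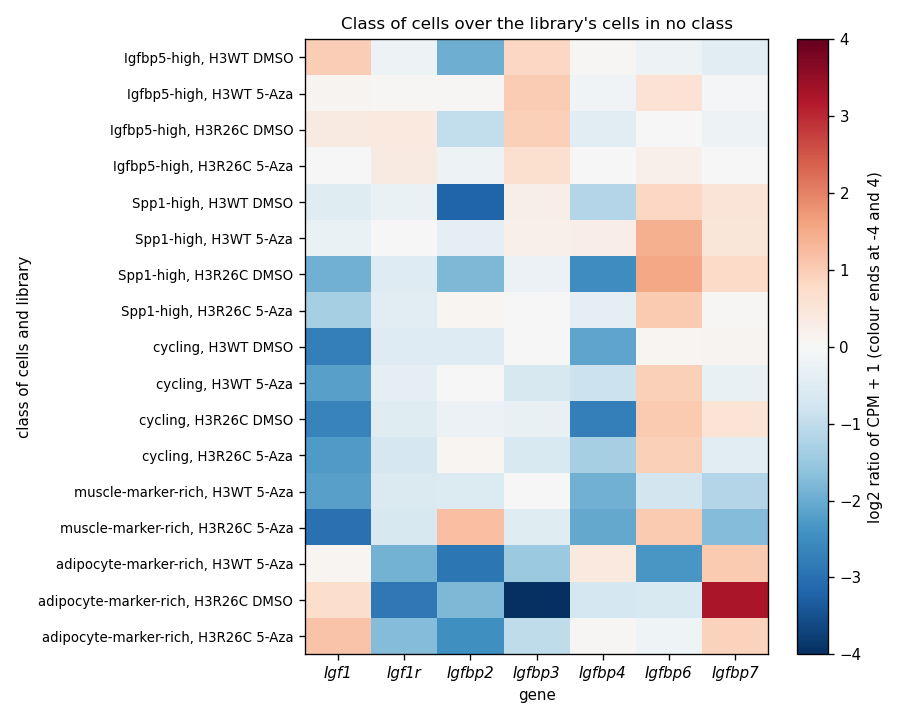
Log2 ratio of CPM plus 1 in each class of cells over the cells of no class in the same library, red for higher and blue for lower, for the 7 genes other than Igfbp5, which helped to define the cells of no class. Igf1 is lowered in cycling and muscle-marker-rich cells (71.5 against 567 CPM in the latter of H3R26C 5-Aza), and Igf1r is lowered in adipocyte-marker-rich cells.

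Correlations across cells were low, and at this depth counting noise also holds r down: Igf1r had 1.23 to 1.36 UMIs per positive thinned cell. For the 5 genes with a UMI in at least 10% of thinned cells in every library (Igf1, Igf1r, Igfbp4, Igfbp5 and Igfbp7), Pearson's r of the logged thinned counts lay between -0.062 and 0.25 over 10 pairs and 4 libraries. Igf1 with Igfbp4 had the highest values, 0.17 to 0.25, and Igf1 with Igfbp5 gave 0.081 to 0.18. Igfbp5 with Igfbp7 gave -0.054 to -0.00016. Cells of a library share its culture and preparation, so these are descriptions.

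Of 5349 other genes compared, those whose pattern was most like each of these by the median r of the 4 libraries were Cst3 (0.36), Rnase4 (0.35) and Mmp2 (0.33) for Igf1, where Cst3 encodes cystatin C, Rnase4 a secreted ribonuclease and Mmp2 a matrix metalloproteinase. Igfbp4 came nearest to Cst3 and Lum (0.22 and 0.21), Igfbp5 to Dcn (0.22), and Igfbp7 to Mgp, Bgn and Pcolce (0.22, 0.21 and 0.21). Lum, Dcn and Bgn encode small leucine-rich proteoglycans, Mgp matrix Gla protein and Pcolce an enhancer of procollagen processing. Whether the partners differ between these genes was not tested. No gene reached a median r of 0.2 with Igf1r.

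A list of 28 other genes of the pathway (ligands, receptors, docking proteins, adaptors, proteases and their inhibitors) was read for the same comparisons, and 22 passed the minimum. With 5-Aza 4 were 2-fold or more higher and 1 lower in H3WT, against 4.38% and 0.272% of all genes tested. In H3R26C 3 were higher and 2 lower, against 7.27% and 3.12%. H3R26C over H3WT gave 2 higher and 0 lower with DMSO, against 1.82% and 0.577% of all genes tested. With 5-Aza it gave 0 higher and 2 lower, against 4.21% and 2.68%. The median log2 ratio of the 22 was 0.02, -0.02, -0.06 and -0.29 in these comparisons. That of the 8 genes was 1.70, 2.26, 0.22 and -0.02, so the medians lay far apart only for 5-Aza over DMSO.

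Among the ligands and receptors, Igf2 was at 13.6, 60.8, 26.8 and 48.7 CPM in H3WT DMSO, H3WT 5-Aza, H3R26C DMSO and H3R26C 5-Aza. Igf2r, which clears IGF-II, was at 93.5, 96.7, 90.4 and 103 CPM, and Insr, the insulin receptor, at 19.4, 19.0, 16.1 and 14.6. Igf2 alone among them was past 2-fold, in H3WT with 5-Aza (ratio 4.46, 4.19 to 4.76), and its ratio was 1.81 (1.73 to 1.91) in H3R26C.

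The genes for enzymes that cut binding proteins moved in both directions. Pappa2, which encodes the PAPP-A relative that cuts IGFBP-3 and IGFBP-5, was at 7.67, 46.4, 20.2 and 76.1 CPM in the same order, and Htra1, a secreted serine protease, at 1.58, 22.8, 1.68 and 45.2. Both were past 2-fold with 5-Aza in each genotype, and Pappa2 also in H3R26C over H3WT with DMSO (2.63, 2.40 to 2.88). Pappa, which encodes PAPP-A, was at 25.2, 22.5, 20.5 and 7.98 CPM, lowest in H3R26C 5-Aza, where it was past 2-fold against either comparison library. Stc1, which encodes stanniocalcin 1, a PAPP-A inhibitor, had 6, 75, 146 and 176 UMIs in the libraries, and its ratio of H3R26C to H3WT with DMSO was 25.1 (11.3 to 69.6) on these few counts. At 0.0691, 0.889, 1.74 and 1.59 CPM it passed the minimum only through the H3R26C libraries, where it is high, so its call there is partly set by the filter.

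Downstream of the receptor, Irs2, a docking protein, was at 36.4, 12.8, 26.1 and 3.69 CPM, and Grb14, an adaptor that restrains insulin receptor signaling, at 5.54, 27.8, 2.70 and 22.0. Irs2 was lower with 5-Aza in both genotypes, with ratios of 0.353 (0.329 to 0.378) in H3WT and 0.141 (0.127 to 0.157) in H3R26C, and lower in H3R26C than in H3WT with 5-Aza (0.287, 0.255 to 0.322). Grb14 was higher with 5-Aza in both, with ratios of 5.03 (4.55 to 5.56) and 8.13 (7.10 to 9.36). The other tested genes of the list, those of the AKT kinases and FOXO factors among them, were within 2-fold in all 4 comparisons.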

How the data were processed

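Single-cell RNA counts of 4 libraries, 1 per condition, were analysed. UMI counts were deposited by the authors as Cell Ranger wrote them (6.1.0 in the matrix headers, on a GRCm38 reference of 10X Genomics), and the submitters' notes also name Seurat 4. The deposited counts were whole numbers without normalization, for the barcodes that Cell Ranger called cells. No column was left unmapped. The genes, lists and classes were chosen with earlier results of these data known. Kept cells were summed per library and scaled to CPM (Python 3.11.15, numpy 2.4.6, scipy 1.17.1, pandas 2.3.3, matplotlib 3.10.9). Intervals were exact 95% Poisson, binomial or conditional binomial intervals, which cover counting error only. A gene was called at 2-fold on CPM plus 1, among genes with a mean of 1 CPM or more. Correlated genes were named at a median r of 0.2 or more, up to 3 a gene. Shares of positive cells were taken after thinning to 5000 UMIs. With 0 positive cells, the upper limit (3 cells) was 0.0394% to 0.0809% by library. Cell cycle genes came from Seurat 5.3.0 in R 4.3.3, matched by letter case. Doublets were not removed, and cells were not clustered. Gene positions matched 99.6% of identifiers, and all 8 genes matched the promoter table. All members were named; of the pathway list, Igf2, Igf2r, Insr and those past 2-fold in a comparison were named. The fold and thinning steps were tested on simulated data.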

Additional observations from a re-analysis of the deposited data

Results flagged for a closer look

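The level of Igf1 and of Igfbp5 moved in opposite directions with 5-Aza in the 2 genotypes, higher in H3WT and lower in H3R26C, with counting intervals that exclude no change in each. The log2 ratio in H3R26C minus that in H3WT was -0.85 for Igf1 and -1.74 for Igfbp5, and 2.92% and 0.320% of all genes tested had a lower value. With 1 library per condition these differences were not tested. Without Spp1-high cells the log2 ratio in H3R26C was 0.02 for Igf1 and -0.03 for Igfbp5. In cells of no class it was 0.11 for Igf1 and 0.50 for Igfbp5, and without Igfbp5-high cells 0.48 for Igfbp5. Leaving out Igfbp5-high cells bounds Igfbp5 by construction. The share of thinned cells with an Igfbp5 UMI was higher with 5-Aza in both genotypes. It was 42.5% against 22.3% in H3WT and 50.02% against 38.4% in H3R26C. For Igf1 the direction in H3R26C thus depends on the cells counted. For Igfbp5 it turned only where Igfbp5-high cells were left out, which cannot decide it, since those cells were picked by Igfbp5.

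The barcodes left out by the cell filter, 2529 and 1813 with DMSO and 9009 and 4491 with 5-Aza in H3WT and H3R26C, held member UMIs too, and many were above the left-out barcodes of the DMSO control beyond counting error. In H3WT 5-Aza this held for all 8 genes: Igf1 470.0 CPM (DMSO 320), Igf1r 44.2 (24.3), Igfbp2 14.4 (7.55), Igfbp3 63.4 (16.7), Igfbp4 519 (256), Igfbp5 840 (224), Igfbp6 2.52 (0 UMIs) and Igfbp7 163 (72.2). In H3R26C 5-Aza it held for Igf1r at 96.5 CPM (DMSO 41.1), Igfbp2 14.8 (0.495), Igfbp3 83.3 (8.42), Igfbp4 627 (225), Igfbp5 1052 (918), Igfbp6 20.1 (0 UMIs) and Igfbp7 381 (59.4). The level of Igfbp5 was thus higher with 5-Aza in the left-out barcodes of H3R26C and lower in the kept cells. Counting intervals take UMIs as independent, while most Igfbp5 UMIs of the kept cells came from few cells. The spread between barcodes is thus not covered, and this contrast was not tested.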

How the results depend on the processing

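No paired analysis was possible because the design holds a single library of every condition and no replicate numbers. Of the 15 log2 ratios between libraries past 2-fold, no alternative run turned the direction, and 189 of 195 alternative values stayed past 2-fold. Among all 416 alternative values between libraries, 15 turned direction, all of them for ratios short of 2-fold. These included Igf1 and Igfbp5 with 5-Aza in H3R26C. Igfbp5 turned there only where Igfbp5-high cells were left out, which bounds Igfbp5 by construction. With a pseudocount of 10 CPM the log2 ratio of Igfbp6 in H3WT was 0.59 and that of Igfbp2 between genotypes with DMSO -0.54, so the count of genes lower there was 0. Between genotypes with DMSO the count higher was 2 with a pseudocount of 0.1 CPM and 0 without Igfbp5-high cells or in cells of no class, which lowers Igfbp5 by construction. Without Igfbp5-high cells 1 gene, Igf1, was lower between genotypes with 5-Aza. The share of Igfbp5-high cells was 10.7%, 18.2%, 23.5% and 19.1% at a line of 0.1% and 2.45%, 5.24%, 9.54% and 5.09% at 0.4%, for H3WT DMSO, H3WT 5-Aza, H3R26C DMSO and H3R26C 5-Aza; it was 10.4% in H3WT 5-Aza with the looser cell filter and 12.2% in H3R26C 5-Aza without cycling cells. At 0.1% Igfbp2 in H3R26C 5-Aza turned from lower to higher in Igfbp5-high cells (log2 ratio 0.48). With a minimum of 10 CPM, 8609 genes were tested, and the share higher and lower was 2.24% and 0.221% for 5-Aza in H3WT, 3.62% and 3.07% in H3R26C, 1.21% and 0.360% for the genotypes with DMSO and 2.25% and 2.47% with 5-Aza. The counts higher were 193, 312, 104 and 194 (547, 907, 227 and 525 at 1 CPM), and those lower 19 in H3WT, 31 between genotypes with DMSO and 213 with 5-Aza (34, 72 and 334). Igfbp6 and Igfbp2 were low with DMSO, so their log2 ratios depend on the pseudocount. Igfbp6 had 16 UMIs in H3WT DMSO and 68 in H3R26C DMSO, and Igfbp2 had 645 and 168.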
